A study of Mus musculus with 15 samples.

Results

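Lin28a, Lin28b, Hmga1, Hmga2, Igf2bp1, Igf2bp2, Igf2bp3, Trim71 and Sall4 are genes that are active in early embryonic cells and are shut down as tissues mature, and they are described here in self-organizing mouse optic tissue. They were chosen by symbol because Lin28a was seen to fall strongly in +Wnt tissue, and the question was how fast each tissue loses the group. All 9 genes were found, as 9 of the 23244 gene entries, and all 9 were among the 13845 entries with enough signal to be tested. Because the fall of Lin28a in +Wnt tissue was the reason for the choice, Lin28a is described there without a test, and member counts in comparisons that use +Wnt tissue are over the other 8 genes. Tests of Lin28a in +Fgf tissue against Day 10 share the Day 10 libraries with that fall. They are therefore not fully independent of the choice.

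Lin28a and Lin28b encode RNA-binding proteins that block the maturation of let-7, a family of small RNAs whose levels rise during development. The let-7 family in turn represses the messages of Lin28a, Lin28b, Hmga2, the Igf2bp genes and Trim71, so that the early state and the late state each hold the other down. In retinal progenitors, Lin28 genes are known for keeping cells in an early state in which early-born neurons such as ganglion cells are made, and let-7, miR-125 and miR-9 are known for ending it. Hmga1 and Hmga2 bind AT-rich DNA in chromatin, the Igf2bp proteins bind and stabilize messages, Trim71 is an RNA-binding ubiquitin ligase, and Sall4 is a zinc finger factor of pluripotent and early embryonic cells.

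Embryonic stem cells reaggregate in SFEBq culture and form an optic epithelium by themselves. All groups derive from a single embryonic stem cell line, EB5 Rx::GFP+/-, in which GFP reports the activity of Rax (Rx), a gene of the eye field, and which was kept in 2i medium (CHIR99201 and a MEK inhibitor, PD184352 in the labels but another compound in the study's methods) with LIF before differentiation. Day 10 Rx::GFP+ tissue is GFP-positive neural retina epithelium that was dissected with forceps and collected at once. The other explants were matured with CHIR99201, a GSK3 inhibitor that activates Wnt/β-catenin signalling, at 3 μM for 24 h and at 1 μM after that (+Wnt, labelled retinal pigmented epithelium), or with human bFgf at 5 ng/mL in 10% FBS (+Fgf, labelled neural retina), and collected at Day 12 and Day 15. The study describes the Day 15 aggregates as mostly, but not wholly, of these identities. Each of the 5 groups held 3 libraries, 15 in all. Explants kept without either stimulus are not part of the groups, so the effect of time and the effect of a stimulus cannot be told apart, and the same holds for bFgf and FBS in the +Fgf medium.

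The libraries held between 12556998 and 16175450 reads on genes, and 1 read was worth between 0.0620 and 0.0764 CPM, the normalized unit of the values. The labelled tissue was checked with marker genes. The summed CPM of 8 retinal progenitor markers was 2400 to 2494 in the Day 15 +Fgf libraries and 616 to 662 in the Day 15 +Wnt libraries, and that of 8 pigment epithelium markers was 327 to 395 and 5195 to 6718, respectively, although Rpe65 and Best1, which mark mature pigment epithelium, were near 0. Markers of pluripotent cells were low but did not vary alike in libraries of a group. Of 12 such markers, 12 were highest in replicate 1 of Day 12 +Wnt, 10 were highest in replicate 2 of Day 12 +Fgf and in replicate 2 of Day 15 +Fgf, and 11 were lowest in replicate 1 of Day 15 +Wnt, and these libraries are given separately where they touch a result. In bulk tissue, fewer cells of a type and less RNA per cell cannot be told apart.

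All 9 genes hold at least 1 match to the let-7 seed in the 3′ UTR (22 matches in all), and the sequences are shown because this is a feature the choice of genes by symbol did not require, although most of them are known as let-7 targets. The mature let-7a sequence (RefSeq, GRCm38.p6) is given first, with its seed, bases 2 to 8, in capitals. The target stretches are from GENCODE M21 transcripts (GRCm38), 30 bases each, written 5′ to 3′ in the sense of the message with the seed match in capitals, and each lies in the 3′ UTR within 1 exon. Shown are the first site of both Lin28 genes, the first of the 4 sites of Hmga2, and the first of the 4 sites of Igf2bp1 and of Trim71.
mmu-let-7a-5p: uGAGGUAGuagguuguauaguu
Lin28a, chr4:134005189-134005218, minus strand: ttggagtgcacagcctgttgaaCTACCTCa
Lin28b, chr10:45381022-45381051, minus strand: tcccttcacccgggcgggaagtCTACCTCa
Hmga2, chr10:120364224-120364253, minus strand: agggggcgccgacattcaatttCTACCTCa
Igf2bp1, chr11:95961778-95961807, minus strand: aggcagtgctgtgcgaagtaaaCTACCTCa
Trim71, chr9:114512472-114512501, minus strand: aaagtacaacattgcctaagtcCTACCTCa

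The motif searched was CTACCTC on the sense strand only. The number of matches was 4 in Lin28b, Hmga2, Igf2bp1 and Trim71, 2 in Lin28a, and 1 in Hmga1, Igf2bp2, Igf2bp3 and Sall4. Of 13022 other tested genes with a 3′ UTR in the annotation, 9.48% held a match, but 3′ UTRs of the members are long (median 2775 bases against 1047.5 bases). Among genes whose 3′ UTR length was between 0.8 and 1.2 times that of the member, the share with a match ranged from 8.24% (for Hmga1) to 33.0% (for Igf2bp1). The share with at least 4 matches was 0.136% of 1474 genes for the length of Hmga2 and 0.815% of 491 genes for that of Trim71. The member itself is counted in each of these shares. Mature let-7 was not measured by these libraries, which were made from mRNA. All 18 entries of let-7, miR-125 and miR-9 hairpins were listed at 0 in each of the 15 libraries. A match is a description of the sequence and does not show that let-7 acts there.

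At Day 10, the members covered a wide range of levels. Per kilobase of the matched transcript, Hmga1 had the highest mean level (431 CPM per kb), followed by Hmga2 (120 CPM per kb), Igf2bp2 (103 CPM per kb), Igf2bp3 (70.5 CPM per kb), Lin28a (36.0 CPM per kb), Lin28b (30.6 CPM per kb), Igf2bp1 (26.8 CPM per kb), Sall4 (10.6 CPM per kb) and Trim71 (2.41 CPM per kb). In this order the Day 10 libraries of Hmga2 and Igf2bp2, of Lin28a and Lin28b, and of Lin28b and Igf2bp1 overlapped, while those of the other neighbours did not.

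All members were lower at Day 15 than at Day 10 in both tissues, but the tissues lost them in a different order. In +Fgf tissue Lin28a was lowest by Day 12, at 23.8% of the Day 10 mean, followed by Sall4 at 48.5%, Lin28b at 54.8% and Trim71 at 61.1%, while Hmga1 was at 84.7%, Igf2bp1 at 103% and Hmga2 at 131%. In +Wnt tissue Trim71, Sall4 and Hmga2 led, at 26.4%, 40.4% and 42.0% of the Day 10 mean at Day 12, while Lin28b was at 84.2% and Igf2bp3 at 88.3%. By Day 15 the means of the members ranged from 3.96% (Lin28a) to 66.2% (Hmga1) of Day 10 in +Fgf tissue, and from 3.69% (Lin28a) to 28.0% (Igf2bp1) in +Wnt tissue.

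**Figure D1:**
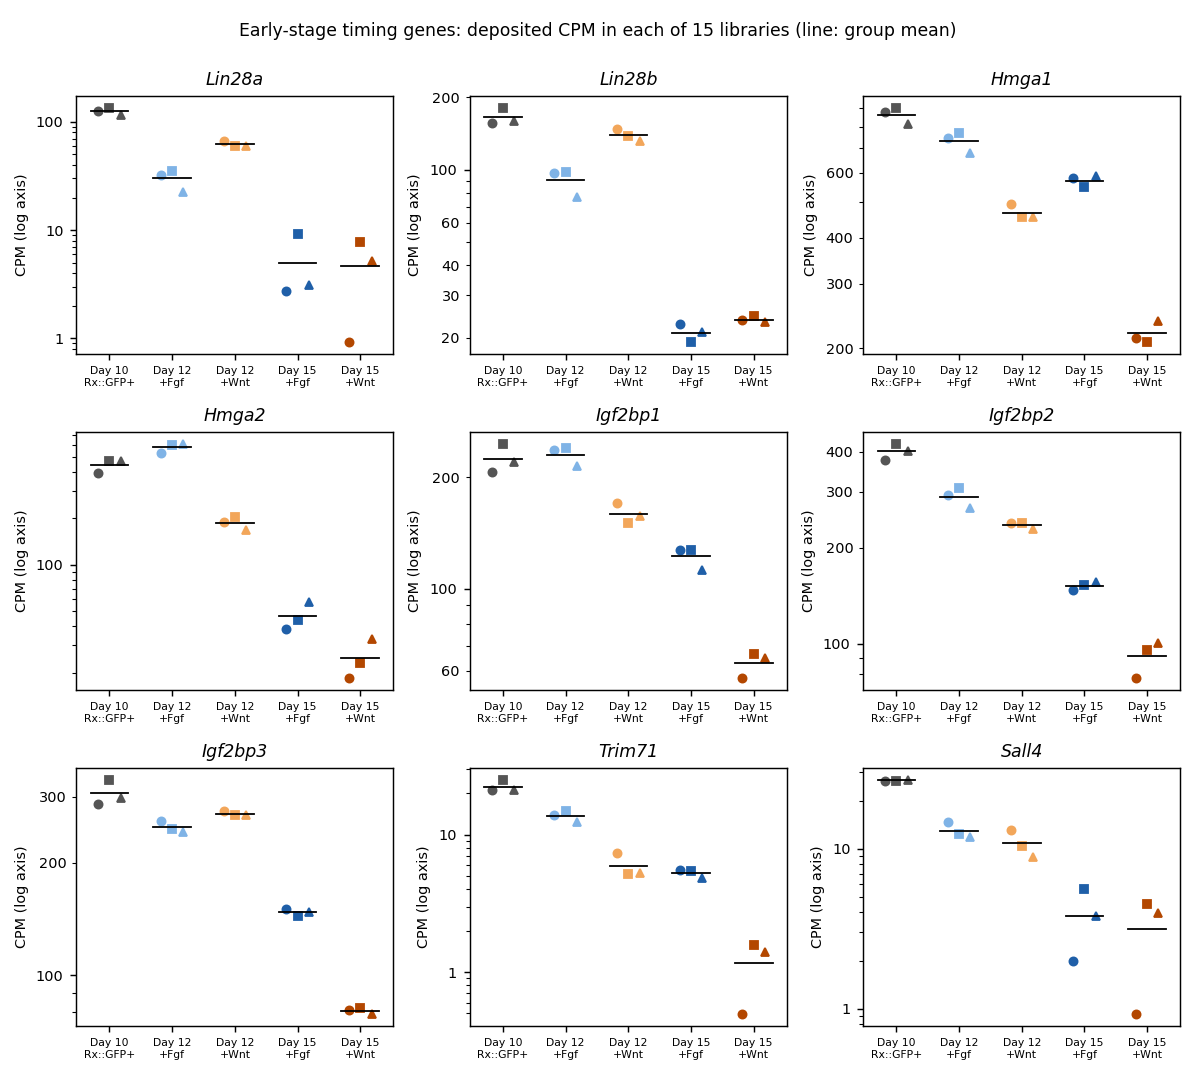
CPM (log axis) of the 9 genes in each library of the 5 groups; circles, squares and triangles are replicates 1, 2 and 3, and the line is the group mean. Lin28a and Lin28b are lower at Day 12 in +Fgf than in +Wnt tissue, while Hmga1, Hmga2, Igf2bp1, Igf2bp2 and Trim71 are lower in +Wnt tissue.

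Lin28a (XLOC_014853, chr4:134003330-134018841, minus strand, 4 exons) was at 127, 135 and 117 CPM in the Day 10 libraries. At Day 12 it was at 32.5, 35.0 and 22.4 CPM in +Fgf tissue and at 66.2, 59.4 and 60.0 CPM in +Wnt tissue. The libraries of these groups did not overlap, and the +Wnt libraries lay between the Day 10 and the +Fgf libraries. In +Fgf tissue the log2 value fell by 2.08 (SE 0.50, 95% interval −3.14 to −1.03, limma adjusted p = 0.00211), a 4.24-fold lower level. In +Wnt tissue the log2 difference was −1.02, which is given without a test. The median log2 change of markers of pluripotent cells was negative in both tissues. Of 11 tested, 7 fell in +Fgf (median −1.50, against 27.8% of all entries) and 2 in +Wnt tissue (median −0.56, against 29.6%). The +Wnt count was thus not above the share of all entries. Without Tbx3, the summed level of the markers was 58.5 to 79.2 CPM at Day 10. It was 8.24 to 25.1 CPM in Day 12 +Fgf and 29.5 to 76.6 CPM in Day 12 +Wnt tissue. Among the +Fgf libraries both this sum and Lin28a were highest in replicate 2 and lowest in replicate 3. The same order held for Lin28b, Hmga1, Igf2bp1, Igf2bp2 and Trim71. Sall4, Hmga2 and Igf2bp3 had other orders. In Day 12 +Wnt tissue the sum was 76.6, 43.5 and 29.5 CPM in replicates 1, 2 and 3. All members but Hmga2 were highest in replicate 1 there, and Sall4 had the same order as the sum. The part of pluripotent cells in the Day 12 values of Lin28a and Sall4 was not tested in either tissue.

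At Day 15, Lin28a was at 2.73, 9.13 and 3.11 CPM in +Fgf tissue and at 0.931, 7.83 and 5.19 CPM in +Wnt tissue. The libraries of both tissues overlapped, and those within a tissue differed by several fold, although all were below every Day 12 library. From Day 12 to Day 15 the log2 value fell by a further 2.69 in +Fgf tissue (SE 0.50, limma adjusted p = 0.000219), and the difference in +Wnt tissue was −4.03. Without replicate 1 of Day 15 +Wnt, the latter was −3.22. The second fall in +Fgf tissue did not pass the threshold when RNA integrity (RIN) was a covariate (−1.64, limma adjusted p = 0.247). RIN moved with the group, since it was lower in all 3 Day 15 +Fgf libraries than in any Day 12 +Fgf library.

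Lin28b (XLOC_001960, chr10:45376620-45486395, minus strand, 5 exons), the paralog of Lin28a, was at 156, 180 and 159 CPM in the Day 10 libraries. It was at 96.9, 97.6 and 76.8 CPM at Day 12 in +Fgf tissue and at 148, 138 and 132 CPM in +Wnt tissue. All +Fgf libraries were below all +Wnt libraries, which in turn were below all Day 10 libraries. The log2 change from Day 10 was −0.87 in +Fgf tissue (SE 0.09, limma adjusted p = 4.28e-07) and −0.25 in +Wnt tissue (SE 0.09, limma adjusted p = 0.0216). The latter was lost under quantile normalization (−0.14, adjusted p = 0.179) and without replicate 2 of Day 10 (−0.18, adjusted p = 0.109), replicate 2 of Day 12 +Wnt (−0.24, adjusted p = 0.0552) or replicate 3 of Day 12 +Wnt (−0.21, adjusted p = 0.0843).

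By Day 15 the levels of Lin28b in both tissues had come close, at 22.7, 19.2 and 21.1 CPM with +Fgf and 23.6, 24.5 and 23.2 CPM with +Wnt. The +Wnt libraries were narrowly above all +Fgf libraries. From Day 12 the log2 change was −2.08 in +Fgf tissue (SE 0.09, limma adjusted p = 1.89e-11) and −2.53 in +Wnt tissue (SE 0.09, limma adjusted p = 1.06e-12). Of the whole log2 fall of Lin28b to Day 15, 8.89% was reached by Day 12 in +Wnt tissue and 29.5% in +Fgf tissue.

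Hmga2 (XLOC_002258, chr10:120361275-120476469, minus strand, 5 exons) is an architectural chromatin factor of stem and progenitor cells. It was at 393, 472 and 470 CPM at Day 10, at 532, 601 and 610 CPM at Day 12 in +Fgf tissue, and at 189, 204 and 168 CPM at Day 12 in +Wnt tissue. The +Fgf libraries were all above Day 10 and the +Wnt libraries all below. The +Fgf difference of 0.39 on the log2 scale missed the threshold (SE 0.16, 95% interval 0.042 to 0.73, limma adjusted p = 0.0536) but passed it under 5 alternative settings (adjusted p from 0.0023 to 0.0488). With RIN as a covariate it was 0.020, which did not pass. The +Wnt change was −1.25 (SE 0.16, limma adjusted p = 6.48e-06).

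At Day 15, Hmga2 was at 38.2, 43.7 and 57.5 CPM in +Fgf tissue and at 18.5, 23.0 and 32.9 CPM in +Wnt tissue. The tissues did not overlap, and both were far below Day 12. Between Day 12 and Day 15 the log2 change was −3.65 in +Fgf tissue (SE 0.16, limma adjusted p = 3.72e-11), a 12.6-fold lower level that ranked at place 65 by size among the 13845 entries. In +Wnt tissue it was −2.93 (SE 0.16, limma adjusted p = 1.84e-10). The processed copy Hmga2-ps1, which could take reads of the gene, had at most 6.58 CPM.

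Hmga1 (XLOC_008369, chr17:27556497-27563674, plus strand, 5 exons), the relative of Hmga2, kept the largest share of its level in +Fgf tissue. It was at 875, 901 and 813 CPM at Day 10, at 746, 769 and 677 CPM at Day 12 in +Fgf tissue, and at 492, 454 and 454 CPM in +Wnt tissue. At Day 15 it was at 579, 548 and 588 CPM with +Fgf and at 213, 209 and 238 CPM with +Wnt. None of these groups overlapped. The log2 change from Day 10 to Day 15 was −0.59 in +Fgf tissue (SE 0.06, limma adjusted p = 1.24e-07) and −1.97 in +Wnt tissue (SE 0.06, limma adjusted p = 5.45e-14). The antisense neighbour AI413582, which shares exonic sequence with Hmga1, had 1.00 to 13.8 CPM. Annotated antisense transcripts overlap exons of Lin28a, Hmga2, Igf2bp1, Trim71 and Sall4 as well, and their levels were not analysed here.

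The 3 Igf2bp genes, whose products bind messages including that of Igf2, were each lower at Day 15 in +Wnt than in +Fgf tissue. Igf2bp1 (XLOC_003760, chr11:95957163-96005940, minus strand) was at 206, 246 and 221 CPM at Day 10, at 237, 239 and 215 CPM at Day 12 in +Fgf tissue, and at 170, 151 and 158 CPM in +Wnt tissue. The +Fgf libraries overlapped those of Day 10, with a log2 difference of 0.040 (SE 0.08, 95% interval −0.12 to 0.20, limma adjusted p = 0.675), while the +Wnt libraries were all lower, with −0.49 (SE 0.08, limma adjusted p = 3.26e-05). At Day 15 the gene was at 127, 127 and 112 CPM with +Fgf and at 57.3, 66.5 and 64.7 CPM with +Wnt, so that both groups were below all Day 12 libraries.

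Igf2bp2 (XLOC_007909, chr16:22059009-22163299, minus strand) was at 377, 424 and 403 CPM at Day 10, at 292, 309 and 267 CPM at Day 12 with +Fgf, and at 240.0, 238 and 229 CPM with +Wnt. At Day 15 it was at 147, 153 and 156 CPM with +Fgf and at 78.0, 95.2 and 100.7 CPM with +Wnt. The groups followed each other without overlap, with +Wnt the lower tissue at both days. The log2 change by Day 12 was −0.47 in +Fgf (SE 0.08, limma adjusted p = 6.14e-05) and −0.77 in +Wnt tissue (SE 0.08, limma adjusted p = 3e-07).

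Igf2bp3 (XLOC_017154, chr6:49085223-49214957, minus strand) had small steps by Day 12 and larger steps after it. The gene was at 287, 333 and 298 CPM at Day 10, at 258, 247 and 242 CPM at Day 12 with +Fgf and at 275, 268 and 268 CPM with +Wnt, and then at 151, 144 and 148 CPM and at 80.9, 82.0 and 79.0 CPM at Day 15, respectively. The Day 12 tissues were close but did not overlap, and the Day 15 tissues lay far apart. The Day 12 steps were −0.30 (SE 0.05, limma adjusted p = 7e-05) and −0.18 (SE 0.05, limma adjusted p = 0.00447), of which the +Wnt step was lost under quantile normalization (adjusted p = 0.285), and the steps from Day 12 to Day 15 were −0.75 (SE 0.05, limma adjusted p = 1.83e-09) and −1.74 (SE 0.05, limma adjusted p = 2.24e-13). The antisense neighbour Malsu1, which overlaps its exons, was at 12.4 to 18.6 CPM throughout.

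Trim71 (XLOC_022069, chr9:114507133-114564369, minus strand), which acts with let-7 in developmental timing, was at 21.2, 25.1 and 21.1 CPM at Day 10. It was at 13.9, 14.8 and 12.4 CPM at Day 12 with +Fgf, at 7.42, 5.15 and 5.23 CPM at Day 12 with +Wnt, at 5.53, 5.43 and 4.88 CPM at Day 15 with +Fgf and at 0.496, 1.57 and 1.40 CPM at Day 15 with +Wnt. Day 12 +Wnt tissue had thus already reached the range of Day 15 +Fgf tissue, where the libraries overlapped. By Day 12 the log2 change was −1.88 in +Wnt (SE 0.24, limma adjusted p = 4.5e-06) and −0.70 in +Fgf tissue (SE 0.24, limma adjusted p = 0.0202), the latter lost without replicate 2 of Day 10 (−0.62, adjusted p = 0.0726) or replicate 3 of Day 12 +Fgf (−0.63, adjusted p = 0.0672). The lowest library, replicate 1 of Day 15 +Wnt, held 8 reads of the gene.

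Sall4 (XLOC_012490, chr2:168748332-168767943, minus strand) was at 26.6, 26.6 and 27.0 CPM at Day 10, at 14.7, 12.3 and 11.9 CPM at Day 12 with +Fgf, and at 13.1, 10.4 and 8.87 CPM with +Wnt. The tissues overlapped at Day 12, and again at Day 15, with 1.99, 5.63 and 3.82 CPM for +Fgf and 0.931, 4.55 and 4.00 CPM for +Wnt. The log2 change by Day 12 was −1.03 in +Fgf (SE 0.39, limma adjusted p = 0.0336) and −1.30 in +Wnt tissue (SE 0.39, limma adjusted p = 0.0088). The +Fgf change kept its size (−0.98 to −1.05) but not its call with the smaller pseudocount, without the filter, and without any of the 3 Day 10 libraries or replicate 2 or 3 of Day 12 +Fgf (adjusted p from 0.0516 to 0.0832). All Day 12 +Fgf libraries were below all Day 10 libraries. The SE is taken over all groups, including the Day 15 libraries, which differed several fold within a tissue.

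Counted over the group, 7 of 9 genes fell past the threshold from Day 10 to Day 12 in +Fgf tissue (median log2 change of members −0.47, of all tested entries −0.0021), against 27.8% of all tested entries that fell. In +Wnt tissue 8 of 8 fell (median −0.83, against 29.6% of all entries). From Day 12 to Day 15, 9 of 9 fell in +Fgf tissue (median −1.33, against 29.9%) and 8 of 8 in +Wnt tissue (median −1.82, against 35.5%). Over the whole course from Day 10 to Day 15, 9 of 9 fell in +Fgf tissue (median −2.03, against 36.4%) and 8 of 8 in +Wnt tissue (median −2.46, against 40.2%). No member rose past the threshold in any of these 6 comparisons. With RIN as a covariate, 5 of 9 passed from Day 12 to Day 15 in +Fgf tissue, with Lin28a, Hmga1 (−0.14 in place of −0.35), Trim71 (−0.60 in place of −1.33) and Sall4 (−0.56 in place of −1.79) lost. The comparisons with Day 10 share the Day 10 libraries.

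**Figure D2:**
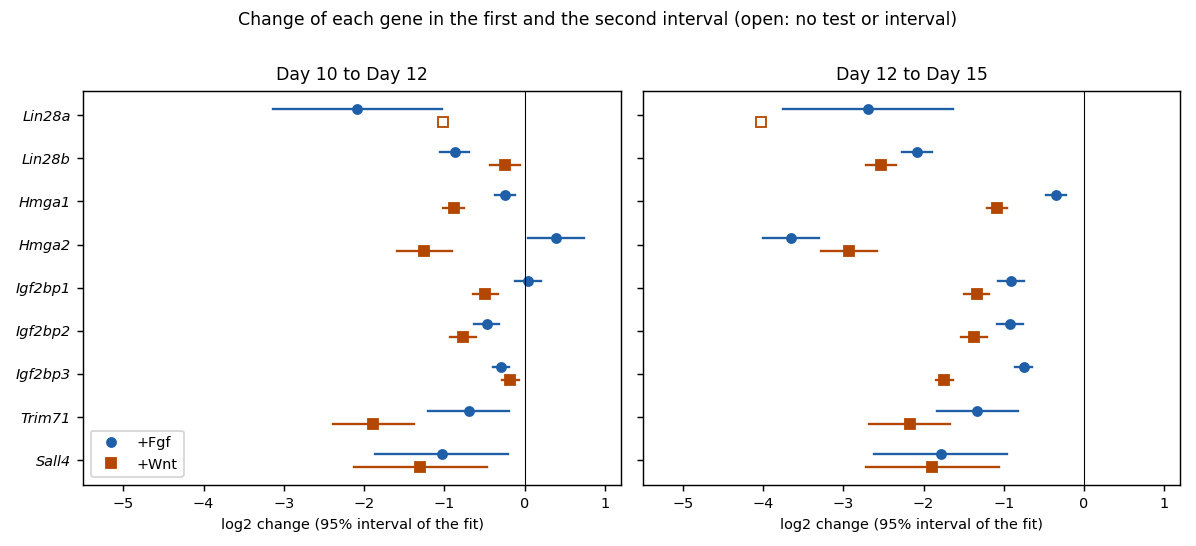
Log2 change of each gene from Day 10 to Day 12 (left) and from Day 12 to Day 15 (right) in +Fgf (circles) and +Wnt tissue (squares), with the 95% interval of the fit; open symbols are not tested. In the first interval Hmga2 is at 0.39 in +Fgf and −1.25 in +Wnt tissue, and in the second all points lie below 0.

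The pace was compared as the log2 change per day, since the first interval lasts 2 days and the second 3 days. In +Fgf tissue 4 of 9 genes fell faster per day after Day 12 (20.0% of all entries changed in this direction), and these were Hmga2 (from a rise of 0.19 per day to a change of −1.22 per day, limma adjusted p = 1.56e-07), Igf2bp1 (limma adjusted p = 0.000185), Lin28b (from −0.44 to −0.69 per day, limma adjusted p = 0.00376) and Igf2bp3 (limma adjusted p = 0.0265). Of these, Hmga2 alone passed with RIN as a covariate, and Igf2bp3 was lost under other settings too, such as without replicate 1 or 3 of Day 10 or replicate 1 or 2 of Day 12 +Fgf (adjusted p from 0.0549 to 0.142). Lin28a changed by −1.04 per day (SE 0.25) and then by −0.90 per day (SE 0.17), with a difference of 0.14 (95% interval −0.62 to 0.91, limma adjusted p = 0.783).

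In +Wnt tissue 4 of 8 genes fell faster per day after Day 12 (23.7% of all entries). Lin28b went from −0.12 to −0.84 per day (limma adjusted p = 2.16e-07) and Igf2bp3 from −0.089 to −0.58 per day (limma adjusted p = 2.36e-08). Igf2bp1 (limma adjusted p = 0.00682) and Hmga2 (limma adjusted p = 0.0241) were the others, and Hmga2 was lost with RIN as a covariate and without replicate 1 of Day 10 or replicate 1 or 2 of Day 12 +Wnt. For Trim71 and Sall4 the pace did not differ past the threshold in either tissue (95% interval of the difference in +Wnt tissue −0.15 to 0.58 and −0.58 to 0.62 per day), although Trim71 fell more slowly after Day 12 in +Wnt tissue without replicate 1 of Day 15 +Wnt (0.35, adjusted p = 0.0165).

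Directly compared at Day 12, 7 of 8 genes differed between the tissues. Higher in +Fgf tissue were 5 of them (26.3% of all entries were higher), namely Hmga2 with a log2 difference of 1.64 (SE 0.16, limma adjusted p = 3.17e-07), Trim71 with 1.19 (SE 0.24, limma adjusted p = 0.000536), Hmga1 with 0.65 (SE 0.06, limma adjusted p = 1.19e-07), Igf2bp1 with 0.53 (SE 0.08, limma adjusted p = 1.68e-05) and Igf2bp2 with 0.29 (SE 0.08, limma adjusted p = 0.00403). Lower in +Fgf tissue were 2 (25.2% of all entries were lower), Lin28b with −0.62 (SE 0.09, limma adjusted p = 1.36e-05) and Igf2bp3 with −0.12 (SE 0.05, limma adjusted p = 0.047). The call for Igf2bp3 was lost without the filter, with the replicate block (adjusted p = 0.0552) and without any of 5 libraries, replicates 2 and 3 of Day 12 +Fgf and replicates 1, 2 and 3 of Day 12 +Wnt (adjusted p from 0.0783 to 0.148). Sall4 did not differ past the threshold (0.27, 95% interval −0.56 to 1.10, limma adjusted p = 0.591), and Lin28a, which was not tested, was 1.06 lower on the log2 scale in +Fgf tissue.

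At Day 15, 6 of 8 genes were higher in +Fgf tissue, where 38.0% of all entries were higher, and none was lower past the threshold. The differences on the log2 scale were 2.03 for Trim71 (SE 0.24, limma adjusted p = 1.03e-06), 1.38 for Hmga1 (SE 0.06, limma adjusted p = 4.18e-12), 0.96 for Igf2bp1 (SE 0.08, limma adjusted p = 7.48e-09), 0.92 for Hmga2 (SE 0.16, limma adjusted p = 9.87e-05), 0.87 for Igf2bp3 (SE 0.05, limma adjusted p = 9.47e-11) and 0.74 for Igf2bp2 (SE 0.08, limma adjusted p = 1.89e-07). Lin28b differed by −0.18 (95% interval −0.36 to 0.0043, limma adjusted p = 0.077) and passed without replicate 1 of Day 15 +Fgf (−0.24, adjusted p = 0.0369). Sall4 differed by 0.38 (95% interval −0.45 to 1.203, limma adjusted p = 0.407).

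**Figure D3:**
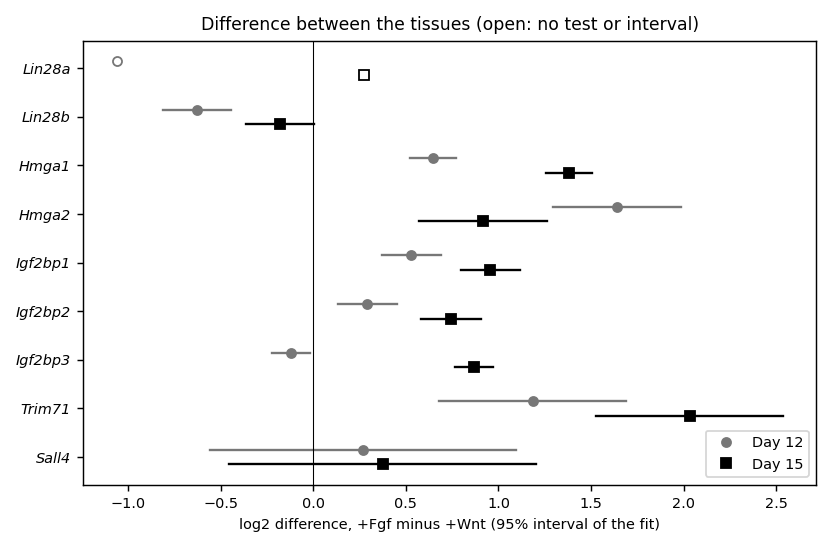
Log2 difference between +Fgf and +Wnt tissue at Day 12 (grey circles) and Day 15 (black squares) with the 95% interval of the fit; open symbols are not tested. Lin28b moves from −0.62 to −0.18 and Igf2bp3 from −0.12 to 0.87, while Hmga2 moves from 1.64 to 0.92.

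The change from Day 12 to Day 15 was itself compared between the tissues. In 6 of 8 genes it was less negative in +Fgf tissue (27.0% of all entries lay in this direction), and in 1, Hmga2, it was more negative (20.9% of all entries). The difference in change was 0.99 for Igf2bp3 (SE 0.07, limma adjusted p = 1.06e-08), 0.73 for Hmga1 (SE 0.08, limma adjusted p = 2.5e-06), 0.45 for Igf2bp2 (SE 0.11, limma adjusted p = 0.00237), 0.43 for Igf2bp1 (SE 0.11, limma adjusted p = 0.00335) and 0.45 for Lin28b (SE 0.12, limma adjusted p = 0.00674). For Hmga2 it was −0.72 (SE 0.23, limma adjusted p = 0.0171), a call that was lost under quantile normalization (−0.61, adjusted p = 0.0557) and with RIN as a covariate (−0.095, adjusted p = 0.866). Trim71 was close to the threshold (0.85, SE 0.34, limma adjusted p = 0.0484) and lost its call under 14 alternatives (adjusted p from 0.0519 to 0.122), among them leaving out any replicate of Day 12 or Day 15 +Fgf, replicate 1 or 3 of Day 12 +Wnt, or replicate 1 of Day 15 +Wnt (0.46, adjusted p = 0.0961). Over the same interval the summed CPM of 12 genes of dividing cells moved from 3634 to 3927 to between 3188 and 3310 in +Fgf tissue, and from 3092 to 3148 to between 1318 and 1435 in +Wnt tissue. Its part in the differences between the tissues was not tested.

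The remaining Lin28a and Sall4 at Day 15 overlapped between the tissues and varied between libraries of a tissue. Markers of pluripotent cells varied between libraries too, but also differed by tissue. Of 11 tested, 8 were lower and 2 higher in +Fgf than in +Wnt tissue (median −1.85), against 30.6% of all entries that were lower and 38.0% that were higher. Pou5f1, Nanog and Zfp42 are named as defining markers, chosen after their values were seen. Pou5f1, a core factor of pluripotency, was listed at 0, 2.88 and 0.212 CPM in Day 15 +Fgf tissue and at 2.05, 11.9 and 11.9 CPM in Day 15 +Wnt tissue, against 7.75 to 8.41 CPM at Day 10. Nanog was at 0 to 0.893 CPM in +Fgf and 1.61 to 6.12 CPM in +Wnt tissue, and Tbx3 at 55.8 to 77.7 CPM and 0.744 to 2.03 CPM, so that neither overlapped. The high +Fgf library for Pou5f1 was replicate 2, where Lin28a (9.13 CPM) and Sall4 (5.63 CPM) were highest as well. The low +Wnt library was replicate 1, where Lin28a (0.931 CPM), Sall4 (0.931 CPM) and Trim71 (0.496 CPM) were lowest. Hmga2 (18.5 CPM), Igf2bp1 (57.3 CPM) and Igf2bp2 (78.0 CPM) were lowest in that library too. The 12 markers together were at 63.3 to 90.2 CPM in Day 15 +Fgf and at 21.9 to 76.5 CPM in Day 15 +Wnt tissue, and at 4.498, 27.0 and 7.49 CPM and 21.2, 73.8 and 74.5 CPM, respectively, without Tbx3, which made up most of the +Fgf sum. Lin28b, Hmga1 and Igf2bp3 did not follow this pattern of libraries in either tissue. Hmga2, Igf2bp2 and Trim71 did not follow it in +Fgf tissue, where replicate 2 was not their highest library. The part of pluripotent cells in the Day 15 values of Lin28a and Sall4 was not tested.

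**Figure D4:**
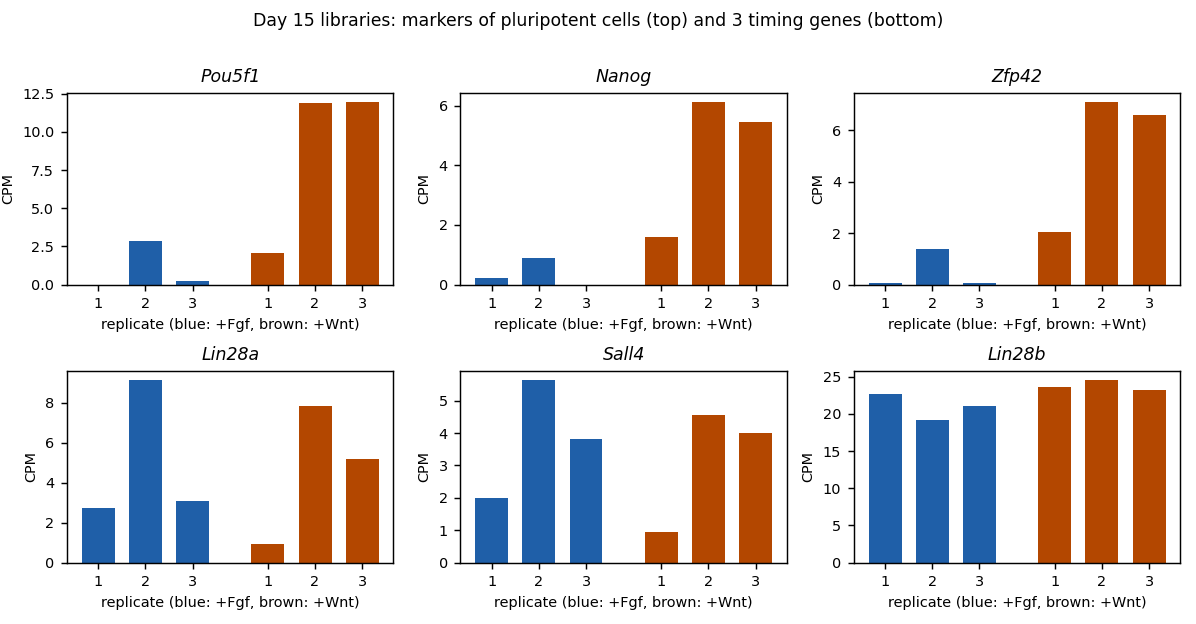
CPM of 3 markers of pluripotent cells (top) and of Lin28a, Sall4 and Lin28b (bottom) in the 6 Day 15 libraries; each bar is a library. Replicate 2 of +Fgf and replicates 2 and 3 of +Wnt are high for Pou5f1, Lin28a and Sall4, while Lin28b lies between 19.2 and 24.5 CPM in all 6.

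The tissue difference of Lin28a at Day 15, 0.28 on the log2 scale, rested on these libraries. It was −0.54 to 0.82 when libraries of the 2 groups were left out in turn, and 1.23 with RIN as a covariate, and its sign turned without replicate 2 of +Fgf or replicate 1 of +Wnt. In replicates 2 and 3 of Day 15 +Wnt, Pou5f1 was above its Day 10 level. Lin28a was at 7.83 and 5.19 CPM there, against at least 117 CPM at Day 10. The part of pluripotent cells in these values was not tested.

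Genes that process let-7 or work with Lin28 (18 genes, a list set with earlier results known) also fell for the most part. From Day 10 to Day 15, 3 rose and 14 fell in +Fgf tissue (median −0.35), where 36.2% of all entries rose and 36.4% fell, and 0 rose and 14 fell in +Wnt tissue (median −0.72), where 39.6% of all entries rose and 40.2% fell. By Day 12, 1 rose and 9 fell in +Fgf tissue (median −0.17, all entries 27.9% and 27.8%), and 2 rose and 11 fell in +Wnt tissue (median −0.36, all entries 30.6% and 29.6%). Dicer1, which cuts the let-7 precursor, was at 178 to 195 CPM at Day 10 and changed by −0.53 in +Fgf (limma adjusted p = 2.07e-07) and −1.07 in +Wnt tissue (limma adjusted p = 1.87e-11) by Day 15. Tarbp2, the Dicer partner, changed by −1.16 (limma adjusted p = 9.98e-09) and −1.27 (limma adjusted p = 1.8e-09). Tut4 and Tut7 add the uridine tail to let-7 precursors bound by Lin28, and Dis3l2 degrades the tailed product. By Day 15, Tut4 changed by −0.30 (limma adjusted p = 4.85e-05) in +Fgf and −0.71 in +Wnt tissue (limma adjusted p = 9.73e-10), Dis3l2 by −0.13 (limma adjusted p = 0.0325) and −0.54 (limma adjusted p = 5.19e-08), and Tut7 differed by 0.11 (limma adjusted p = 0.191) and −0.11 (limma adjusted p = 0.186).

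Other known let-7 targets (18 genes) did not move as a block at Day 12. In +Fgf tissue 8 rose and 4 fell (median 0.10), where 27.9% of all entries rose and 27.8% fell. In +Wnt tissue 2 rose and 13 fell (median −0.48), where 30.6% of all entries rose and 29.6% fell. The number that fell in +Fgf tissue was thus not above the share of all entries. By Day 15 the counts were 6 and 10 in +Fgf tissue (median −0.31, all entries 36.2% and 36.4%). In +Wnt tissue they were 1 and 15 (median −0.77, all entries 39.6% and 40.2%). Prtg, a membrane protein of early neural progenitors, was at 177, 214 and 174 CPM at Day 10, at 50.5, 52.3 and 38.1 CPM at Day 12 with +Fgf and at 85.5, 78.0 and 82.2 CPM with +Wnt, and at 17.2 to 19.2 CPM (+Fgf) and 25.1 to 29.0 CPM (+Wnt) at Day 15. Nr6a1, an orphan nuclear receptor of early embryos, was at 45.0, 54.6 and 41.9 CPM at Day 10, at 11.6, 10.1 and 8.05 CPM at Day 12 with +Fgf and at 19.3, 17.8 and 18.0 CPM with +Wnt. Both were lower in +Fgf than in +Wnt tissue at Day 12, with log2 differences of −0.81 for Prtg (SE 0.10, limma adjusted p = 5.79e-06) and −0.88 for Nr6a1 (SE 0.13, limma adjusted p = 3.25e-05), the direction of Lin28b. Myc, a driver of growth, went the other way. It was at 93.5, 81.9 and 76.4 CPM at Day 12 in +Fgf tissue but at 7.61, 7.45 and 7.61 CPM in +Wnt tissue (log2 difference 3.42, SE 0.15, limma adjusted p = 1.16e-11).

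Temporal factors of retinal progenitors (13 genes, 12 tested) had medians of opposite sign in the tissues by Day 15. In +Fgf tissue 8 rose and 3 fell (median 1.61), where 36.2% of all entries rose and 36.4% fell. In +Wnt tissue 5 rose and 7 fell (median −1.68), where 39.6% of all entries rose and 40.2% fell. The number that rose in +Wnt tissue was thus near the share of all entries. The 4 nuclear factor I genes, which mark late progenitors, rose in both tissues by Day 15, and further in +Wnt tissue. Nfia changed by 2.26 in +Fgf (limma adjusted p = 5.77e-07) and by 4.44 in +Wnt tissue (limma adjusted p = 6.75e-11), Nfib by 1.79 (limma adjusted p = 3.63e-06) and 3.63 (limma adjusted p = 3.46e-10), and Nfix by 2.73 (limma adjusted p = 3.9e-05) and 5.62 (limma adjusted p = 4.38e-09), and at Day 15 the tissues differed for Nfia (−2.18 for +Fgf minus +Wnt, limma adjusted p = 1.05e-06), Nfib (−1.83, limma adjusted p = 3.39e-06) and Nfix (−2.89, limma adjusted p = 2.44e-05). The Day 15 +Fgf libraries of these 3 genes lay far apart and rose from replicate 1 to 3. They were at 13.6, 23.5 and 31.9 CPM for Nfia, 34.6, 76.2 and 96.0 CPM for Nfib, and 2.36, 7.14 and 15.3 CPM for Nfix. Nfic, named after its values were seen, was higher in +Fgf than in +Wnt tissue at Day 12 (0.91, limma adjusted p = 1.38e-06) and lower at Day 15 (−0.37, limma adjusted p = 0.00425). Foxn4, a factor of mid-stage progenitors, was at 2.22 to 2.47 CPM at Day 10 and at 98.7 to 118 CPM in Day 15 +Fgf tissue (5.35, limma adjusted p = 3.46e-14). Casz1, a mid-stage factor, was at 18.9 to 23.5 CPM at Day 10 and at 31.7 to 41.7 CPM in Day 15 +Fgf but at 2.67 to 3.80 CPM in Day 15 +Wnt tissue. Ikzf1, an early-stage factor, was at 0.248 to 1.02 CPM in all 15 libraries and was not tested.

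**Figure D5:**
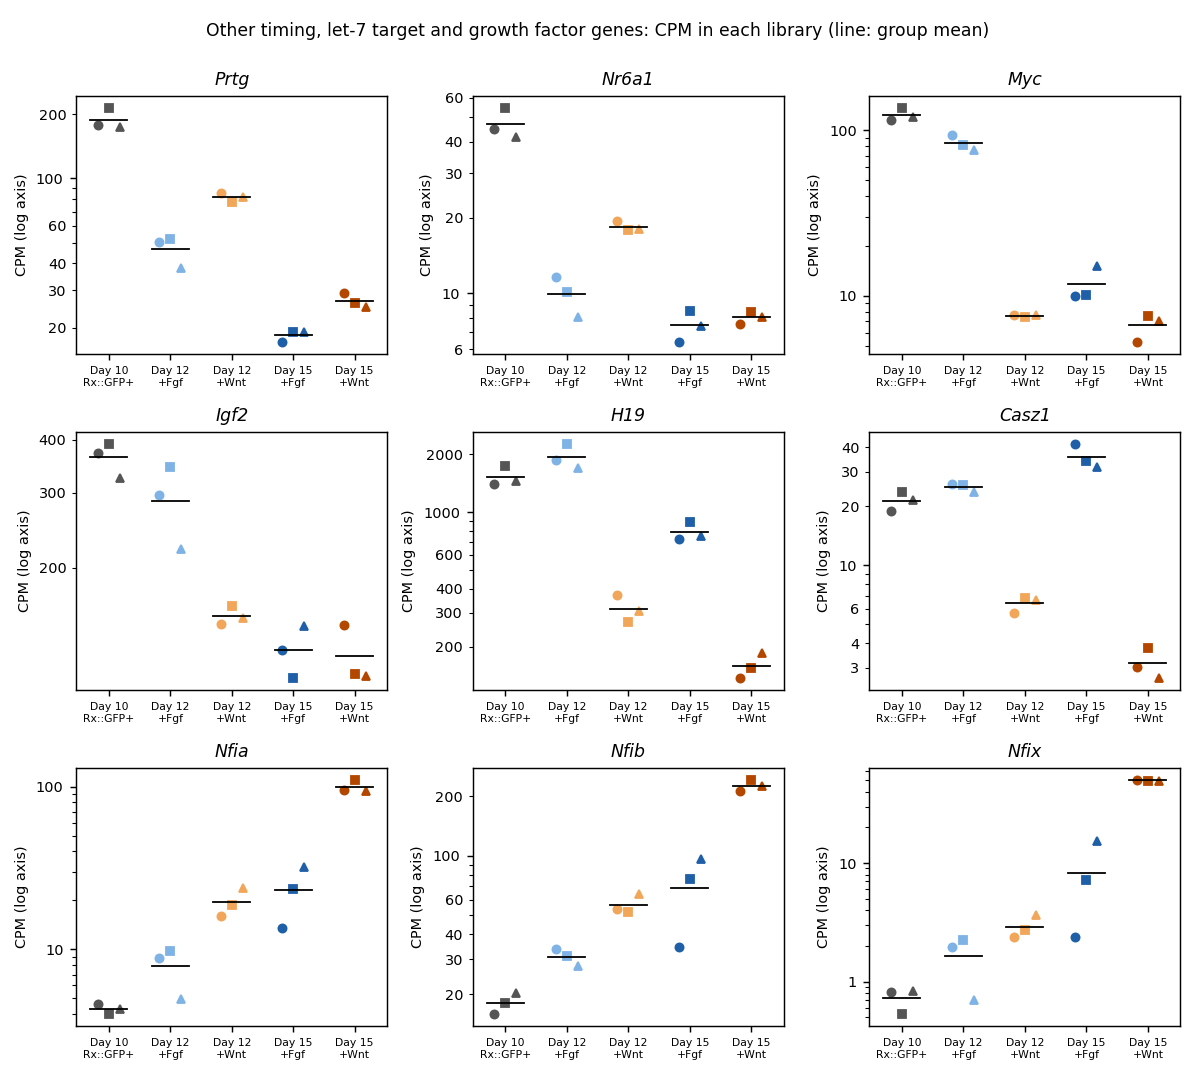
CPM (log axis) of let-7 targets (Prtg, Nr6a1, Myc), the Igf2 and H19 genes, and retinal temporal factors (Casz1, Nfia, Nfib, Nfix) in each library, drawn as for the members. Prtg and Nr6a1 are lower at Day 12 in +Fgf tissue, while Myc, Igf2, H19 and Casz1 are lower in +Wnt tissue.

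Of the insulin-like growth factor genes (11 genes), 5 rose and 4 fell from Day 10 to Day 15 in each tissue (medians 0.23 in +Fgf and 0.025 in +Wnt), which is near the shares of all entries given above. Igf2, whose message the Igf2bp proteins bind, fell by Day 12 further in +Wnt than in +Fgf tissue (log2 difference 0.87, SE 0.14, limma adjusted p = 5.2e-05), and ended at 110 to 146 CPM in +Fgf and 112 to 147 CPM in +Wnt tissue at Day 15, against 326 to 391 CPM at Day 10. H19, the noncoding RNA of the same imprinted locus, was at 1694 to 2272 CPM at Day 12 in +Fgf tissue and at 268 to 371 CPM in +Wnt tissue (log2 difference 2.63, SE 0.13, limma adjusted p = 8.36e-11).

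Relatives that share a domain with a member (18 genes, such as other Sall, cold shock and high mobility group genes) were near the shares of all entries in +Fgf tissue. There 8 rose and 7 fell from Day 10 to Day 15 (median 0.020, all entries 36.2% and 36.4%). In +Wnt tissue 5 rose and 11 fell (median −0.46, all entries 39.6% and 40.2%). Hmgb2, a chromatin protein of dividing cells, was among the largest falls in +Wnt tissue (−1.32, SE 0.05, limma adjusted p = 2.41e-13). Csdc2, a cold shock gene, had a larger change in the other direction. It rose from 4.66 to 5.25 CPM at Day 10 to between 29.6 and 31.9 CPM in Day 15 +Fgf tissue, and to between 31.0 and 37.2 CPM in Day 15 +Wnt tissue.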

How the data were processed

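RNA was extracted from SFEBq tissue of 5 groups with 3 replicates each, and libraries were made with a stranded mRNA kit. The authors mapped reads to mm10 with TopHat2 2.0.8b, quantified genes with Cuffdiff (Cufflinks 2.1.1) on UCSC gene models, and scaled the counts in edgeR 3.2.4. The deposited signal values are what the authors call CPM, but the library totals lie between 936418 and 1075448 rather than at a fixed sum. The test planned for CPM was kept. Dividing by the smallest step gave whole reads for 100% of the values in each library (within 0.1 read). The strand setting of the counting is not given in the sources used here, so reads of antisense neighbours cannot be told apart.

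Values were analysed as log2(value + 0.3) for 13845 entries with at least 1 CPM in at least 3 samples. limma 3.58.1 in R 4.3.3 was fitted to 5 group means over 15 samples with a trended variance. The spread of a gene is estimated over all 5 groups together. The SE of a comparison thus also draws on libraries outside it, such as the variable Day 15 libraries of Lin28a and Sall4. The p-values are two-sided and adjusted after Benjamini-Hochberg over all entries of a comparison (threshold 0.05). Fold changes are on the log2(value + 0.3) scale, which understates the change of low genes. edgeR 4.0.16 (quasi-likelihood) on the recovered reads was an alternative (7764 entries past the threshold from Day 10 to Day 12 in +Fgf, against 7716 with limma), beside other pseudocounts, no filter, 2 other scalings, RIN as a covariate, a replicate block, a fit of the compared groups alone, and leaving out each sample. The procedure was tested on simulated data. The study calls the replicates biological, and whether they came from separate cultures is not given, so p-values measure the spread between these samples.

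Members and lists were chosen with earlier results of these data known. Apart from members, the genes named are those set by a rule (at most the 3 largest changes of a list, and Prtg, Ikzf1, Casz1, Dicer1, Dis3l2, Tut4, Tut7, Igf2 and H19), and not all that meet it are given. Member transcripts and 3′ UTRs were matched by RefSeq accession to GENCODE M21, as were 13500 of the tested entries. The check of replicate numbers is given with the alternatives. Python 3.11.15 was used for sequences and plots.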

Additional observations from a re-analysis of the deposited data

Results flagged for a closer look

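The change from Day 12 to Day 15 differed between +Fgf and +Wnt tissue in 7 genes by a test of the difference itself (limma). The differences in log2 change, +Fgf minus +Wnt, were 0.4458 for Lin28b, 0.7338 for Hmga1, −0.7203 for Hmga2, 0.4265 for Igf2bp1, 0.4513 for Igf2bp2, 0.9871 for Igf2bp3 and 0.8457 for Trim71. Hmga2 was the only 1 of the 7 whose fall was steeper in +Fgf tissue. Its call was lost under quantile normalization and with RIN as a covariate, and that of Trim71 under 14 of 21 alternatives. For Lin28b and Igf2bp3, the tissue that was higher at Day 12 (+Wnt) lost more by Day 15. Both parts of that statement use the same Day 12 libraries, and the Day 12 difference of Igf2bp3 lost its call under 7 of 15 alternatives.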

How the results depend on the processing

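Of 1593 recomputed log2 changes of single genes, 1500 kept their direction and, where tested, their side of the threshold. Of the others, 55 lost the call, 8 gained it, 4 moved without a test and 26 changed sign. Lin28a in comparisons with +Wnt tissue was not tested, and was counted as kept where its value stayed close to the main value relative to its SE. The number of members past the threshold from Day 12 to Day 15 in +Fgf tissue was 5 with RIN as a covariate, against 9, and that of members with a faster pace in +Fgf tissue was 1, against 4. The cause was not tested. All other counts of members stayed within 1.5 times, and the numbers over both tissues at Day 15 against Day 10 were 9 and 8 under all settings.

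None of the values that changed sign had passed the threshold. With RIN, Igf2bp1 from Day 10 to Day 12 in +Fgf was −0.056, and the differences of pace in +Fgf were 0.13 for Igf2bp2, 0.37 for Trim71 and 0.70 for Sall4. With quantile normalization the differences of pace were −0.0054 for Hmga1 in +Fgf and −0.010 for Trim71 and −0.18 for Sall4 in +Wnt, and with a pseudocount of 0.05 it was −0.013 for Sall4 in +Wnt. Leaving out samples gave −0.019 to 0.11 for Igf2bp1 from Day 10 to Day 12 in +Fgf, −0.54 to 0.82 for Lin28a and −0.26 to 0.75 for Sall4 between tissues at Day 15, −0.53 to 0.48 for the difference in change of Sall4, −0.028 to 0.25, −0.042 to 0.035 and −0.18 to 0.044 for the pace of Lin28a, Hmga1 and Sall4 in +Fgf, and −0.099 to 0.23 for that of Sall4 in +Wnt.

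In their deviations from the group means, same-numbered samples of different groups correlated between −0.253 and 0.245 (median −0.0080). Samples with other numbers correlated between −0.334 and 0.292 (median −0.0079). No pairing by replicate number was thus seen, although 3 libraries per group cannot exclude it between particular groups. With the replicate block, 8 genes passed from Day 10 to Day 12 in +Fgf (against 7, with Hmga2 added), 6 between tissues at Day 12 (against 7, with Igf2bp3 lost) and 6 for the difference in change (against 7, with Trim71 lost). Precision is limited by 3 libraries per group and, for Lin28a, Sall4 and Trim71 at Day 15, by between 8 and 133 reads per library.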

Other observations

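The genes most like a member over the 15 samples were ranked by Pearson's r of the log2 values, which is a description, since the samples share groups. For Lin28a these were Zfp518a (0.958), Ddx20 (0.958), Cul4b (0.956), Eif5 (0.956) and Socs6 (0.956). For Lin28b they were Pitrm1 (0.989), Heatr3 (0.989), Slc25a13 (0.986), Cul4b (0.978) and Ada (0.978), and for Hmga2 they were Psmd2 (0.984), Ephb4 (0.982), Mtap (0.976), Erf (0.972) and Eaf2 (0.972). Cul4b, a ubiquitin ligase scaffold, was among the 5 of both Lin28 genes. A like pattern does not mean a like size: from Day 10 to Day 15 in +Fgf tissue the log2 change was −0.62 for Zfp518a and −4.78 for Lin28a. Among the members themselves, r ranged from 0.603 for Lin28b and Hmga1 to 0.964 for Igf2bp2 and Trim71.

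Genes outside the members were also described by the number of let-7 seed matches in the 3′ UTR. Of 142 genes with 2 or more matches, 49.3% fell and 24.6% rose from Day 10 to Day 15 in +Fgf tissue, and 50.0% fell and 31.0% rose in +Wnt tissue. Of 11788 genes without a match, 36.5% fell and 36.5% rose in +Fgf, and 40.7% fell and 39.8% rose in +Wnt tissue. Genes with 1 match (1092) lay close to the latter, with 39.5% falling in +Fgf and 41.1% in +Wnt tissue. The median 3′ UTR length was 3459 bases with 2 or more matches and 952.5 bases without, so the number of matches and the length move together, and the part of length was not tested.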
